A study of Homo sapiens with 10 samples.

Results

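Death receptors, their ligand TRAIL and the proteins that carry or block their signal were followed in human prostate cancer PC-3 cells. The 9 genes were TNFRSF10A, TNFRSF10B, TNFRSF10D, FAS, TNFRSF1A, TNFRSF21, TNFSF10, FADD and CFLAR, of 28090 genes named on the array. Every non-control spot that carried one of these names was taken, which gave 41 spots of 14 probes. The largest change was that of FADD, the adaptor of the receptors, whose signal on the arrays labelled gefitinib was 12.4-fold lower than with DMSO (log2 change -3.64, SE 0.22, n = 2 arrays per group). TNFRSF1A was 2.52-fold lower on the same arrays, and CFLAR was 2.81-fold lower on the arrays labelled with both drugs by 1 of its probes.

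PC-3 is a hormone-insensitive line derived from a prostate cancer. Total RNA was hybridised to 10 single-dye Agilent whole-genome arrays, a pair per group. Cells were taken untreated at 0 h, or after 24 h with the solvent DMSO, with 60 µM luteolin, a plant flavonoid, with 60 µM gefitinib, an inhibitor of the EGF receptor kinase, or with both drugs at those doses, named L+G. DMSO was also the solvent of the drugs, and no group carried a genetic change. The labels call the arrays of a group biological replicates without saying which cultures they came from, so p-values measure the spread between these arrays. The 6 drug-treated arrays have scanner files named for a different treatment than their labels: those labelled luteolin are named for gefitinib, those labelled gefitinib for both drugs, and those labelled with both for luteolin. Groups follow the labels throughout, and every statement on a drug is one on the arrays labelled with it. If the file names were followed instead, the changes of FADD and TNFRSF1A against DMSO would belong to both drugs together and that of CFLAR to luteolin.

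Death receptors are receptors of the tumor necrosis factor family with a death domain in the cell. On binding a ligand they recruit the adaptor FADD, directly for the receptors of TRAIL and Fas ligand and through another adaptor for TNFRSF1A, and FADD brings in procaspase-8. CFLAR, a relative of caspase-8 without its activity, competes for FADD, and decoy receptors bind TRAIL without passing on a death signal. The products are regulated strongly at the protein level, by cleavage and transport, which RNA signals do not measure.

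Levels are given as percent of the array's own 75th percentile over non-control spots, so that arrays of different brightness can be set side by side for the same probe. That percentile was 1402 and 1177 signal units at 0 h, 1350 and 1283 with DMSO, 1173 and 1041 with luteolin, 651 and 628 with gefitinib, and 865 and 539.8 with L+G. Per array, 63.4% to 70.4% of probes passed as well above background. Within a group, the arrays differed least with DMSO (median SD 0.0886, log2) and most with L+G (0.258). The epithelial genes KRT8, KRT18, KRT19 and EPCAM were well above background on 10 of 10 arrays. CTNNA1, which PC-3 is known to lack, was so on 0 arrays, as were the leukocyte gene PTPRC and the fibroblast gene PDGFRB. KLK3, which PC-3 is known not to express, had 1 probe at 1038% to 3517% of the percentile on the 10 arrays and 2 probes well above background on 0 arrays. The markers CD14, PECAM1 and 1 probe of CD3E were well above background on 10 arrays, at most at 24.9% of the percentile. COL1A1 was so on 9 arrays, and CDH5 on 1. The part of such signals in the results was not tested.

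Of the 9 genes, 8 could be tested, being well above background throughout 1 group or more. A gene counted as changed at an adjusted p under 0.05 and at least a 2-fold difference, by limma with Benjamini-Hochberg adjustment over 28754 probes, and it was read from its brightest probe. Between DMSO and 0 h, 0 of 8 changed, where 0.0355% of all 19704 genes did. At an unadjusted p under 0.05 limma also counted 0 (6.18% of all genes), and the methods' t-test counted 2, FAS and TNFRSF10A (12.7% of all genes). Against DMSO, 0 of 8 changed with luteolin (13.4% of all genes), 2 of 8 with gefitinib, both lower (29.9%, of which 14.3% lower), and 1 of 8 with L+G, lower (19.8%, of which 7.7% lower). With luteolin, limma had 1 of 8 at an unadjusted p under 0.05, TNFRSF10A, where 38.4% of all genes had one. At an adjusted p under 0.05 alone, 4 of 8 were lower with gefitinib, TNFRSF10A and TNFRSF10B besides (55.1% of all genes were called either way and 22.2% were lower). The calls of TNFRSF10A and TNFRSF10B by that rule were kept in 9 and 10 of 19 alternatives, the grouping by file names aside, and lost with slide as a block (adjusted p = 0.0884 and 0.0849), without either 0 h or DMSO array and without the second luteolin or gefitinib array. Those of FADD and TNFRSF1A were kept in all 19. With so few genes, the counts are read as a description beside those shares. The 3 comparisons share the DMSO arrays. The arrays of the drug group and of DMSO did not overlap for 7, 7 and 3 of 8 genes with luteolin, gefitinib and L+G. Of all genes, 73.8%, 82.1% and 75.3% did not overlap, so arrays standing apart is common here. The median log2 change of the 8 genes against DMSO was 0.11 with luteolin, -0.52 with gefitinib and -0.05 with L+G, beside 0.08, 0.22 and 0.16 over all genes tested. The arrays read RNA of whole cultures, in which fewer cells of a kind and less RNA per cell cannot be told apart.

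**Figure D1:**
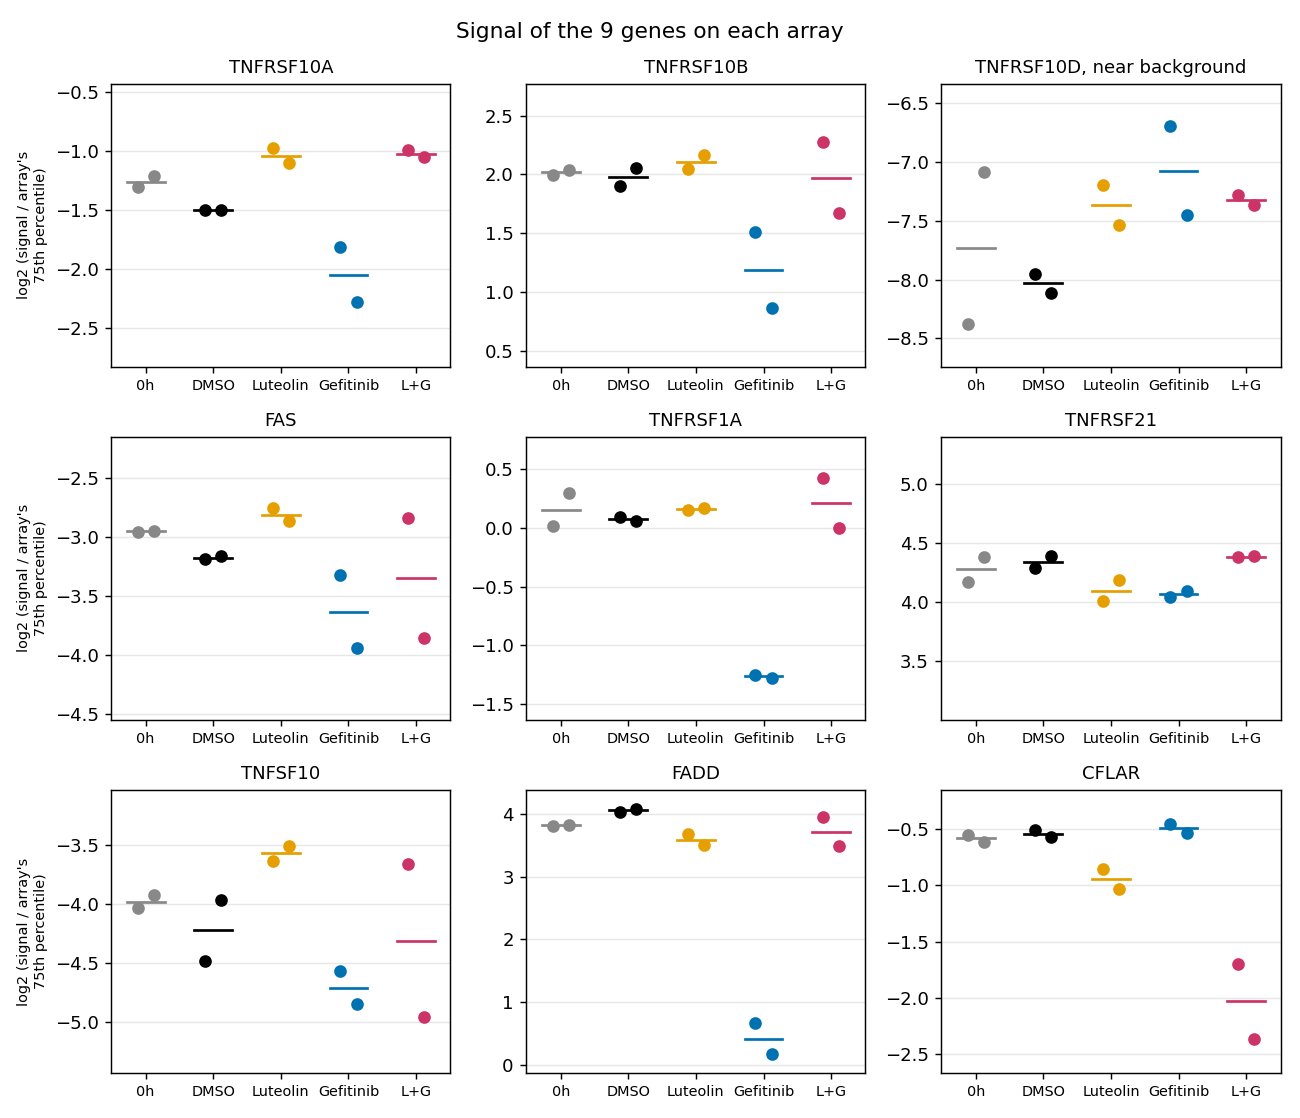
Signal of the brightest probe of each of the 9 genes (vertical axis, log2 of signal over the array's 75th percentile, own scale per panel) on the 2 arrays of each group (points, with the group mean as a line). FADD and TNFRSF1A stand apart on the arrays labelled gefitinib and CFLAR on those labelled L+G, while TNFRSF10D was well above background on 0 of 10 arrays.

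The TRAIL receptors TNFRSF10A and TNFRSF10B (DR4 and DR5) carry a death domain and lie on chromosome 8 with the decoy TNFRSF10D. TNFRSF10A read 40.4% and 43.2% at 0 h, 35.4% on both arrays with DMSO, 50.9% and 46.6% with luteolin, 28.4% and 20.6% with gefitinib, and 50.2% and 48.3% with L+G. The gefitinib arrays were the lowest, the luteolin and L+G arrays the highest, and neither set overlapped DMSO. Against DMSO the log2 changes were -0.55 with gefitinib (SE 0.18, limma adjusted p = 0.0331), 0.46 with luteolin (adjusted p = 0.0999) and 0.48 with L+G (adjusted p = 0.0655), all under 2-fold. The distance between the drug groups was wider. Luteolin was 2.01-fold above gefitinib (log2 1.01, limma adjusted p = 0.00203) and L+G 2.04-fold above gefitinib (log2 1.03, adjusted p = 0.00243), while L+G and luteolin differed by 0.02 (log2, 95% interval -0.40 to 0.43). These 2 calls lie at the 2-fold limit. Without the second gefitinib array they were 0.78 and 0.79, and without the first luteolin array and the first L+G array, 0.95 and 0.998. They were also under 2-fold with normexp background correction (0.71 and 0.76), quantile normalization (0.92 and 0.93) and slide as a block (0.89 and 0.91).

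TNFRSF10B was read by a pair of probes of the same transcript record, whose starts lie 2432 bases apart in the genome, and they did not move together. The brighter one, nearer the 3′ end of the transcript, read 399% and 411% at 0 h, 374% and 415% with DMSO, 414% and 447% with luteolin, 285% and 183% with gefitinib, and 483% and 318% with L+G. Both gefitinib arrays lay below DMSO, with a log2 change of -0.79 (SE 0.26, limma adjusted p = 0.0318), under 2-fold, and of -1.11, past that limit, without the first gefitinib array and -0.47 (adjusted p = 0.18) without the second. With L+G it was -0.01 (95% interval -0.60 to 0.59), with 1 array above and 1 below DMSO.

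The dimmer probe of TNFRSF10B read 29.9% and 31.1% with DMSO, 31.0% and 38.5% with luteolin, 52.7% and 29.7% with gefitinib, and 68.1% and 50.3% with L+G. Here it was the L+G arrays that stood above DMSO, by 0.94 (log2, SE 0.28, limma adjusted p = 0.0300), also under 2-fold. The gefitinib difference was 0.38 (adjusted p = 0.284), opposite in sign to that of the brighter probe. Which transcripts each probe reads was not analysed here.

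TNFRSF10D, a decoy with a truncated death domain, lay near background on 10 of 10 arrays, with readings from 0.301% to 0.961% of the percentile. It was therefore not tested. With no filter on dim probes its log2 differences from DMSO were 0.66, 0.96 and 0.71 with luteolin, gefitinib and L+G (limma adjusted p = 0.381, 0.0963 and 0.263), between signals of which none was well above background.

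FAS, the receptor of Fas ligand, was read by 1 probe printed as 10 spots on chromosome 10. It read 12.9% on both arrays at 0 h, 11% and 11.1% with DMSO, 14.8% and 13.7% with luteolin, 10.0% and 6.49% with gefitinib, and 14.0% and 6.88% with L+G. The luteolin arrays lay above and the gefitinib arrays below DMSO, and the L+G arrays fell on either side of it. No FAS difference from DMSO passed the test. The log2 values were 0.36 with luteolin, -0.46 with gefitinib and -0.17 with L+G (limma adjusted p = 0.456, 0.259 and 0.687), with 95% intervals of -0.38 to 1.11, -1.20 to 0.28 and -0.92 to 0.57. The SD among the spots of an array was 0.0538 to 0.150 (log2).

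TNFRSF1A (TNFR1), the death receptor for tumor necrosis factor, changed on the arrays labelled gefitinib. The brighter of its probes read 101% and 123% at 0 h, 106% and 104% with DMSO, 111% and 112% with luteolin, 42.1% and 41.3% with gefitinib, and 134% and 100% with L+G. The gefitinib arrays were below all 8 others, 2.52-fold lower than DMSO (log2 -1.33, SE 0.18, limma adjusted p = 0.00106) and 2.67-fold lower than 0 h (log2 -1.41, adjusted p = 0.000821). L+G, luteolin, 0 h and DMSO, in falling order of their means, differed from one another by at most 0.14 (log2). Both luteolin arrays lay above DMSO, by 0.08 on average (limma adjusted p = 0.775).

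The second TNFRSF1A probe, printed as 10 spots, read 75.9% and 79.0% at 0 h, 62.2% and 66.9% with DMSO, 71.2% and 74.5% with luteolin, 22.7% and 28% with gefitinib, and 84.0% and 61.6% with L+G. It gave a log2 change of -1.35 for gefitinib against DMSO (SE 0.19, limma adjusted p = 0.00121). The spread among its spots on an array was 0.0530 to 0.0923 (SD, log2). Both probes lie on chromosome 12, at chr12:6308995-6309209 and chr12:6308325-6308384 of hg18 on the minus strand. L+G was above gefitinib by 1.47 and 1.51 (log2) on the pair (adjusted p = 0.00047 and 0.000513). The interaction, the L+G change less the sum of the changes with each drug, was 1.39 (SE 0.26, limma adjusted p = 0.00504) and 1.34 (SE 0.27, adjusted p = 0.00717). On the only slide that held both a gefitinib and a DMSO array, the differences were -1.33 and -1.45.

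TNFRSF21 (DR6), a death receptor studied mostly in neurons and lymphocytes, differed from DMSO by less than 2-fold in every group. Its brighter probe read 1801% and 2085% at 0 h, 1957% and 2091% with DMSO, 1609% and 1815% with luteolin, 1651% and 1702% with gefitinib, and 2078% and 2100% with L+G. The luteolin and gefitinib arrays lay below DMSO and the L+G arrays overlapped it. Log2 changes against DMSO were -0.24, -0.27 and 0.05 (limma adjusted p = 0.29, 0.166 and 0.825). Quantile normalization gave -0.88 with gefitinib (adjusted p = 0.00414). A second probe gave -0.32, -0.45 and 0.02, of which the gefitinib value had an adjusted p of 0.0323, and an interaction of 0.80 (SE 0.21, adjusted p = 0.0212). With slide as a block those adjusted p were 0.102 and 0.0527. The brighter probe's interaction was 0.56 (adjusted p = 0.0793).

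TNFSF10 encodes TRAIL, the ligand of the TRAIL receptors, and was dim. Its 10 spots averaged 6.11% and 6.57% at 0 h, 4.48% and 6.41% with DMSO, 8.07% and 8.81% with luteolin, 4.21% and 3.46% with gefitinib, and 7.89% and 3.21% with L+G. It was highest on the luteolin arrays and below DMSO on the gefitinib arrays, and the L+G arrays lay on either side of DMSO. Only 5 of 10 spots were well above background on each gefitinib array, and 3 of 10 on the second L+G array. Against DMSO, the log2 values of 0.65 with luteolin, -0.49 with gefitinib and -0.09 with L+G did not pass (limma adjusted p = 0.244, 0.297 and 0.862). Luteolin was 2.21-fold above gefitinib (log2 1.14, SE 0.38, adjusted p = 0.0288). That call was kept in 11 of 19 alternatives. It was lost without any of the 4 arrays it compares, with log2 differences of 1.00 to 1.28 and adjusted p between 0.06 and 0.119, and normexp background correction left 0.08 (adjusted p = 0.696).

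**Figure D2:**
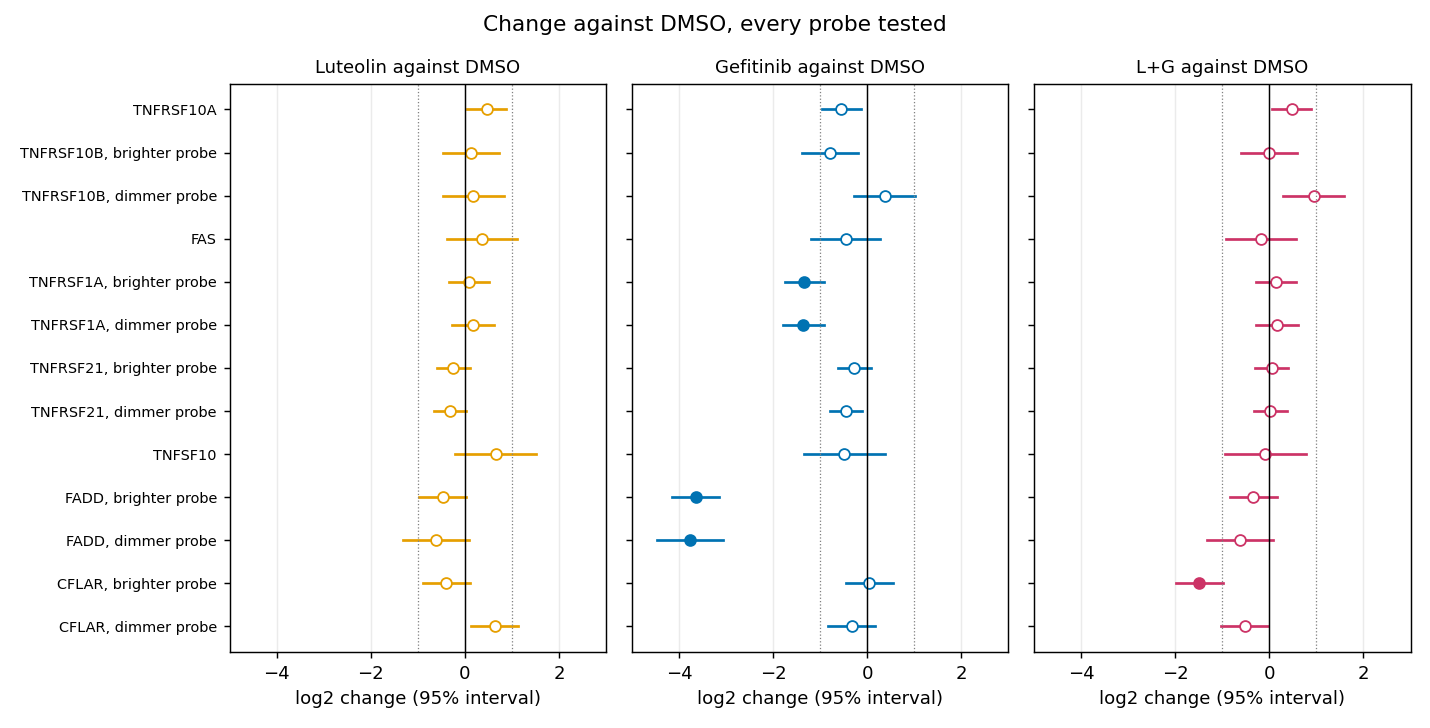
Log2 change against DMSO (horizontal axis) of each of the 13 probes tested, for the arrays labelled luteolin, gefitinib and L+G, with the 95% interval of the limma fit as a line. Filled points passed the adjusted p of 0.05 and the 2-fold limit, whose positions are dotted. FADD lies near -3.64 and -3.76 with gefitinib, and the open points of the other receptors and TNFSF10 lie within 1 of zero.

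FADD, the adaptor that links the receptors to procaspase-8, changed more than any other of the 8 genes tested. Its brighter probe read 1394% and 1421% at 0 h, 1638% and 1690% with DMSO, 1283% and 1129% with luteolin, 159% and 113% with gefitinib, and 1535% and 1122% with L+G. The gefitinib arrays stood apart from the other 8, none of which was under 1122%. FADD was 12.4-fold lower than with DMSO (log2 -3.64, 95% interval -4.14 to -3.14, limma adjusted p = 5.55e-05) and 10.5-fold lower than at 0 h (log2 -3.40, adjusted p = 5.11e-05). Among the 2813 genes lowered by at least 2-fold in that comparison, 66 had a larger fall.

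The second FADD probe, whose start lies 1005 bases from that of the first, read 76.3% and 70.4% at 0 h, 113% and 103% with DMSO, 74.0% and 66.9% with luteolin, 10.9% and 5.81% with gefitinib, and 86.5% and 56.8% with L+G. It gave nearly the same difference, -3.76 (log2, SE 0.30, limma adjusted p = 0.000122). The probes lie at chr11:69730953-69731012 and chr11:69729948-69730007 of hg18 on the plus strand. On the slide shared with a DMSO array, the first gefitinib array differed by -3.37 and -3.38 on the pair.

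With L+G, FADD lay below DMSO by less than the test could call. The log2 change was -0.34 (95% interval -0.84 to 0.16, limma adjusted p = 0.233) on the brighter probe and -0.62 (SE 0.30, adjusted p = 0.131) on the other, and L+G was 9.82-fold above gefitinib (log2 3.30, adjusted p = 4.76e-05). Luteolin gave -0.47 (adjusted p = 0.154) and -0.62 (adjusted p = 0.177). The interaction was 3.76 on both probes (SE 0.31 and 0.43, adjusted p = 0.000235 and 0.000708). In falling order of mean, the groups were DMSO, 0 h, L+G, luteolin and gefitinib. Of the 4 neighbouring pairs in that order, the step from luteolin to gefitinib alone passed, at 3.17 (log2, adjusted p = 4.98e-05), and the others had adjusted p of 0.982, 0.736 and 0.662.

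The gefitinib arrays were also dim, at 651 and 628 signal units for the 75th percentile, as was the second L+G array at 539.8, and the part of brightness in the FADD difference was not tested. On that L+G array, the dimmest of the 10, FADD read 1122%. Quantile normalization, normexp background correction and slide as a block left the FADD change between gefitinib and DMSO at -3.86, -3.62 and -3.57 on the brighter probe and at -3.71, -2.68 and -3.66 on the other.

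Since FADD and TNFRSF1A fell on the same arrays, their promoter windows are shown for the letters they hold, from 250 bases before to 50 after the start in RefSeq (GRCh38.p14). The windows are chr11:70203046-70203345, plus strand, and chr12:6342027-6342326, minus strand, printed in the direction of transcription. Capitals mark matches to 3 motifs on either strand. One is the GC box, spelled GGGCGG. Another is the CCAAT box, which has only those letters. The last is an AP-1 type motif, spelled TGANTCA, where N was allowed to be any base.
FADD: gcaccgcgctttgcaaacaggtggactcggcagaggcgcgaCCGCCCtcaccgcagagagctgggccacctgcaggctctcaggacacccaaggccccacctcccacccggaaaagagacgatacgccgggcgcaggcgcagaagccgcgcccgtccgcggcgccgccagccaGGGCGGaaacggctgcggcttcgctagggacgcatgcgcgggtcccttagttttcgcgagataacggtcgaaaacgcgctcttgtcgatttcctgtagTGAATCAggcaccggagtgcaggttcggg
TNFRSF1A: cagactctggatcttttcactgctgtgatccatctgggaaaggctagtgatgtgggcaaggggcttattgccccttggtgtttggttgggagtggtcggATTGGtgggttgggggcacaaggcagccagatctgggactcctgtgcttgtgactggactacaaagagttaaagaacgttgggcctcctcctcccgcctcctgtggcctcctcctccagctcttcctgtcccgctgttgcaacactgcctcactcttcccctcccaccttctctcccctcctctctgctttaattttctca
The FADD window held the GC box at 2 places, the AP-1 type motif at 1 (as TGAATCA) and the CCAAT box at 0. That of TNFRSF1A held the CCAAT box at 1 place and the others at 0. So the pair shared none of these 3 motifs in the windows shown. Of 35116 windows of the same length, 45% held a GC box, 34.6% a CCAAT box and 7.71% the AP-1 type motif with any base at N. The marked motifs did not overlap.

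CFLAR encodes c-FLIP, the inhibitor that competes with procaspase-8 for FADD, and makes several splice forms. Its brighter probe, at chr2:201708976-201709035 of hg18, read 68.3% and 65.4% at 0 h, 70.2% and 67.2% with DMSO, 55.3% and 49.0% with luteolin, 73% and 69% with gefitinib, and 30.8% and 19.4% with L+G. The L+G arrays were the lowest of the 10, followed by the luteolin arrays. L+G was 2.81-fold below DMSO (log2 -1.49, SE 0.22, limma adjusted p = 0.00242), 2.13-fold below luteolin (log2 -1.09, adjusted p = 0.00608) and 2.90-fold below gefitinib (log2 -1.54, adjusted p = 0.00085). Against DMSO, luteolin gave -0.40 (adjusted p = 0.221) and gefitinib 0.05 (adjusted p = 0.867). The interaction was -1.14 (SE 0.31, adjusted p = 0.0233), and it lay between 0.0509 and 0.0809 in adjusted p without the first or second DMSO array, the first or second luteolin array, or the first gefitinib array. Within the slides, the L+G difference from DMSO was -1.19 and -1.79.

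The second CFLAR probe, at chr2:201733443-201733502 and so 24467 bases further along the gene, gave another picture. It read 9.68% and 11.5% at 0 h, 11.3% and 11.5% with DMSO, 17.2% and 18.2% with luteolin, 9.20% and 9.03% with gefitinib, and 9.93% and 6.36% with L+G. Here the luteolin arrays were the highest of the 10. Luteolin stood 0.64 above DMSO (log2, SE 0.22, limma adjusted p = 0.0646) and 0.75 above 0 h (adjusted p = 0.0335), where the brighter probe was lower by 0.40 and 0.36. L+G gave -0.52 against DMSO (adjusted p = 0.0869), -0.41 against 0 h (adjusted p = 0.162) and -0.20 against gefitinib (adjusted p = 0.475). The interaction on this probe was -0.83 (adjusted p = 0.0686). The calls of L+G against DMSO, 0 h and gefitinib and of the interaction thus rest on the brighter probe alone. The pair did give like values for L+G against luteolin, -1.09 and -1.16 (adjusted p = 0.00608 and 0.00477). With normexp background correction they were -0.80 and -0.45, and with slide as a block the luteolin difference of the second probe from 0 h had an adjusted p of 0.126. Without the second L+G array, the brighter probe's difference from luteolin was -0.76 (adjusted p = 0.0148), under 2-fold. The probes rest on different transcript records, and the splice forms they read were not analysed here.

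**Figure D3:**
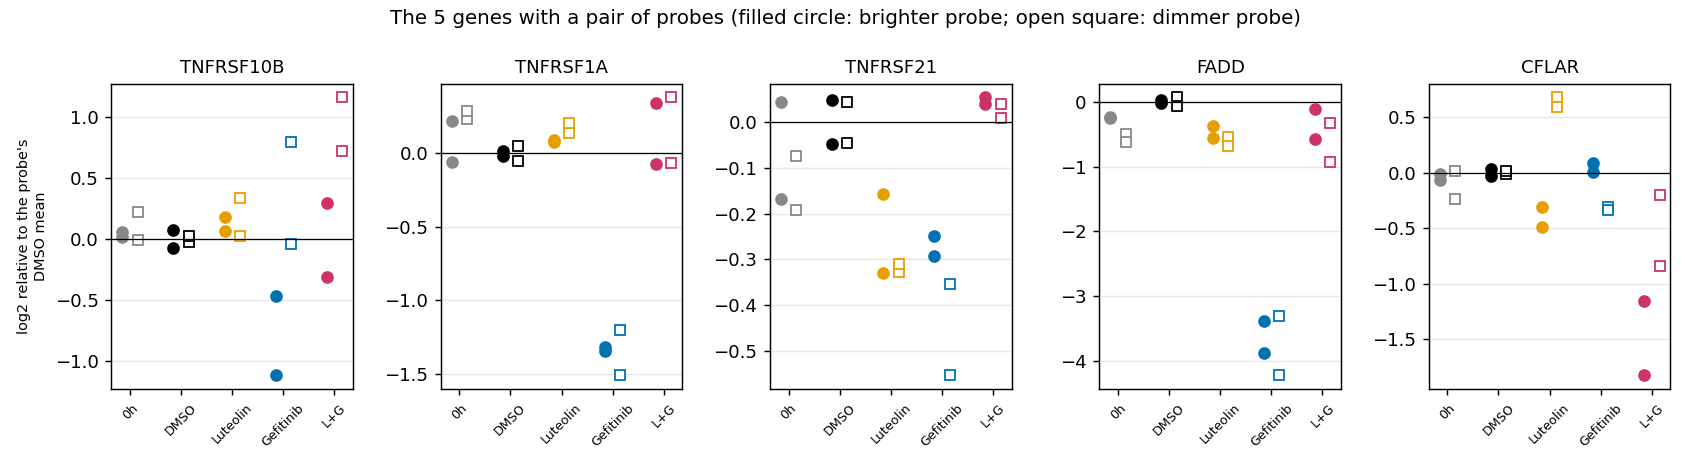
Signal of the 5 genes with a pair of probes, as log2 relative to the same probe's DMSO mean (vertical axis, own scale per panel), on the 2 arrays of each group. Circles are the brighter and squares the dimmer probe. The pairs of TNFRSF1A and FADD run together, and those of TNFRSF10B part on the gefitinib and L+G arrays. Those of CFLAR part on the luteolin arrays (means -0.40 and 0.64) and on the L+G arrays (-1.49 and -0.52).

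Between the drug groups, luteolin exceeded gefitinib by at least 2-fold for 4 of 8 genes, TNFRSF10A, TNFRSF1A, TNFSF10 and FADD (36.6% of all genes were called either way and 18.1% were higher). TNFRSF10B followed at 0.92 (log2, limma adjusted p = 0.0155) and FAS at 0.82 (adjusted p = 0.0557). L+G differed from luteolin for 1 of 8, CFLAR, which was lower (21% of all genes, 9.76% lower), and from gefitinib for 4 of 8 (27%), with TNFRSF10A, TNFRSF1A and FADD higher (17.2%) and CFLAR lower (9.76%). The interaction was called for 3 of 8, TNFRSF1A, FADD and CFLAR (34.2%). Against 0 h, the counts were 0 of 8 with luteolin (16.1%), 2 of 8 with gefitinib (29%, 14.5% lower) and 1 of 8 with L+G (19.9%, 8.32% lower), the same genes as against DMSO.

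The wider pathway was read from a list of 31 further receptors, ligands, adaptors, caspases and inhibitors, of which 25 were tested. Against DMSO, 4 of 25 rose and 3 fell with luteolin, 7 rose and 1 fell with gefitinib, and 5 rose and 1 fell with L+G. All genes were called at 13.4%, 29.9% and 19.8% in those comparisons. The genes that rose include TNFSF15 with luteolin and TNF with gefitinib and L+G. TNFSF15 passed the filter on dim probes only through luteolin, and TNF only through L+G. The list's median log2 change was 0.34, 0.41 and 0.36. The 12 with the largest called change are described by role.

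Among the receptors, TNFRSF6B (DcR3), a soluble decoy that binds Fas ligand, rose by 1.30 (log2) with gefitinib (limma adjusted p = 0.0118) and fell by 1.11 with luteolin (adjusted p = 0.0419). Among the ligands, TNF, the ligand of TNFRSF1A, was not well above background with DMSO. It read 8.12% and 3.31% with gefitinib, where 1 of 2 arrays measured it, so no bound is given there. With L+G, where 2 of 2 arrays measured it, it was at least 3.25-fold higher than with DMSO. Such bounds set the mean against the lowest signal well above background on the DMSO arrays. TNFSF15 (TL1A), the ligand of TNFRSF25, was measured on the luteolin arrays only, at least 5.20-fold above DMSO. TNF passed the filter on dim probes only through L+G, and TNFSF15 only through luteolin. A high signal there was thus a condition of being tested, and no p-value is given for them.

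Among the caspases and BID, of which 4 were tested, 2 genes passed with gefitinib, 1 with luteolin and 0 with L+G. Of all genes, 29.9%, 13.4% and 19.8% were called in those comparisons. CASP10, an initiator caspase that FADD also recruits, was at least 2.59-fold lower with gefitinib (limma adjusted p = 0.00193), not well above background on either array. CASP8, the initiator caspase of this pathway, went the other way, from 107% and 102% with DMSO to 230% and 294% (log2 1.31, adjusted p = 0.0021). BID, which caspase-8 cleaves to reach the mitochondria, fell by 1.38 (log2) with luteolin (adjusted p = 0.0012).

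Of the 25 genes tested, 6 were inhibitors, of which 2 rose with luteolin, 4 with gefitinib and 4 with L+G, where 7.22%, 15.6% and 12.1% of all genes rose. No test of the group was made. TNFAIP3 (A20), which restrains signaling from TNF receptors, read 4.06% and 5.38% with DMSO, 8.40% and 12.5% with luteolin, 85.1% and 55.1% with gefitinib, and 43.1% and 26% with L+G. It rose in all 3 groups, by 1.13, 3.87 and 2.84 (log2, limma adjusted p = 0.0344, 0.000133 and 0.00114). BIRC3 and BIRC2, the cIAP ubiquitin ligases, rose by 1.91 and 1.34 (log2) with gefitinib (adjusted p = 0.00299 and 0.00141) and by 1.56 and 1.12 with L+G (adjusted p = 0.00995 and 0.00451). PEA15, which binds FADD, rose by 1.48 with gefitinib (adjusted p = 0.00181), and the adaptor RBCK1 (HOIL-1), part of the linear ubiquitin ligase, by 1.63 with luteolin (adjusted p = 0.00125). FAIM, an inhibitor of Fas-induced death, read 172% and 193% with DMSO, 253% and 257% with luteolin, 167% and 199% with gefitinib, and 55.5% and 34.5% with L+G. It fell by 2.06 (log2) with L+G (adjusted p = 0.00123), the group in which CFLAR was lowest.

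**Figure D4:**
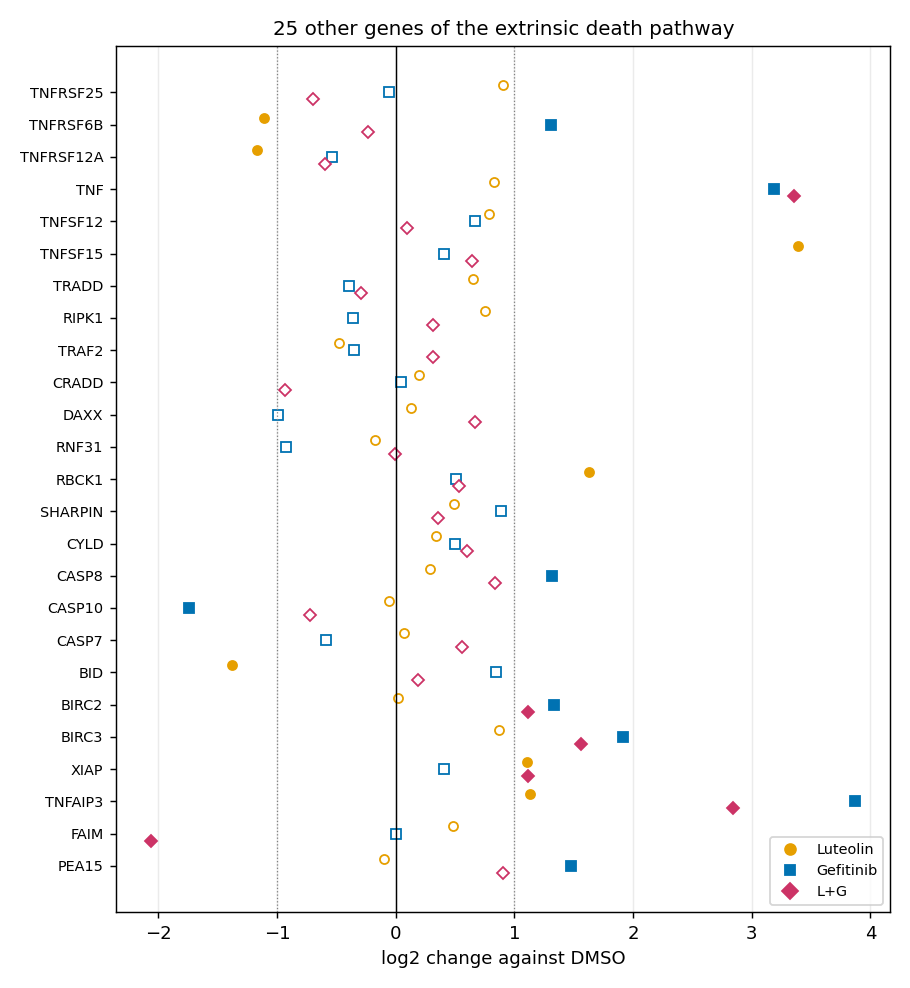
Log2 change against DMSO (horizontal axis) of the 25 listed genes tested, ordered from receptors at the top to inhibitors at the bottom, for the arrays labelled luteolin (circles), gefitinib (squares) and L+G (diamonds). Filled marks passed an adjusted p of 0.05 and 2-fold (dotted lines). For TNF and TNFSF15, a high signal in a drug group was a condition of being tested, so their filled marks are not read as test results. TNFAIP3 reaches 3.87 with gefitinib.

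The genes whose log2 signal followed TNFRSF10B, FAS and TNFSF10 most closely over the 10 arrays were sought among 11064 genes well above background on all of them. For TNFRSF10B these were PDPR (Pearson r = 0.975), BTAF1 (0.960) and CEMIP2 (0.951). For FAS they were the bacterial lipoprotein receptor TLR2 (0.947), GORAB (0.946) and NHSL3 (0.946). For TNFSF10 they were CPLANE1 (0.942), the myelin protein gene MBP (0.912) and STX12 (0.910). The points share arrays and their scaling and fall in pairs by group, and the values are descriptions of these arrays.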

How the data were processed

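RNA of 10 PC-3 samples in 5 groups was measured on 1-color Agilent 4x44K arrays, 1 array per sample. The intensities deposited by the authors are processed signals on a linear scale from Agilent Feature Extraction (version 10.7.3.1 per the file headers), with background and spatial trend subtracted within the array and no scaling between arrays. The series table deposited beside them holds the same intensities within 0.0001, and 0 per-sample columns stayed unused.

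Signals were taken as log2, minus the array's 75th percentile over non-control spots, in R 4.3.3 (limma 3.58.1). Control spots and the 72 to 125 spots per array marked as outliers were left out, and spots of a probe were averaged. An array measured a probe as well above background if 50% or more of its spots carried that mark. Kept were probes that passed on both arrays of any 1 group and had a value on every array, 28754 of 41000, standing for 19704 named genes. A gene was read from its brightest probe, and other probes are given beside it. limma was fitted to all 10 arrays (residual df 5) for 11 comparisons, with Benjamini-Hochberg adjustment over all probes kept, and the procedure was tested on simulated data. Of the 9 genes, 9 matched a RefSeq symbol, and probe positions are those of the scanner files (hg18).

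The genes and lists were chosen with earlier results of these data known. All probes of the 9 genes are described, and of the other pathway genes at most the 12 with the largest called change against DMSO, and the 3 nearest genes for TNFRSF10B, FAS and TNFSF10. Alternatives were normexp background correction with offset 50, quantile normalization, other filters, the median over probes, a replicate or slide block, the treatments in the file names, fits of only the groups compared, no minimum fold, the methods' t-test against 0 h, and leaving out each array. The number of arrays limits the precision. A few genes of the pathway and marker lists are not reported here.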

Additional observations from a re-analysis of the deposited data

Results flagged for a closer look

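The effect of gefitinib differed with and without luteolin for 6 of the 13 probes tested. The test was of the difference itself, the interaction in the limma fit with Benjamini-Hochberg adjustment. For FADD it was 3.76 (log2) on both probes (adjusted p = 0.000235 and 0.000708), for TNFRSF1A 1.39 and 1.34 (adjusted p = 0.00504 and 0.00717), and for the dimmer probe of TNFRSF21 0.795 (adjusted p = 0.0212, and 0.0527 with slide as a block). For the brighter probe of CFLAR it was -1.14 (adjusted p = 0.0233). The brighter probe of TNFRSF21 and the dimmer probe of CFLAR did not pass (adjusted p = 0.0793 and 0.0686). Read from the brightest probe, 3 of 8 genes passed, beside 34.2% of all genes, so the count is not particular to these genes. With arrays grouped by file name, the interactions of FADD, TNFRSF1A and CFLAR were -2.83, -1.55 and 1.94, all opposite in sign.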

How the results depend on the processing

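Changes against DMSO, 24 in all (8 genes, 3 drug groups), were followed over up to 20 alternatives. Of the values, 442 kept direction and side of the threshold, 1 lost and 3 gained a call without changing sign, and 31 changed sign. Among those 31, TNFRSF1A with gefitinib and CFLAR with L+G also lost their calls and TNFRSF1A with L+G gained one, under the file names. The calls of FADD and TNFRSF1A with gefitinib and of CFLAR with L+G were each kept in 19 of 20 alternatives, all but the treatments of the file names. With those treatments, the counts against DMSO became 1 for luteolin, 0 for gefitinib and 2 for L+G (19.8%, 13.4% and 29.9% of all genes). Against 0 h they were 1, 0 and 2 (19.9%, 16.1% and 29%). Luteolin against gefitinib gave 1 (21%) and L+G against luteolin 4 (27%). Sign changes followed from the exchanged arrays. With gefitinib the values were 0.46 for TNFRSF10A, 0.13 for TNFRSF10B, 0.36 for FAS, 0.65 for TNFSF10, 0.0846 for TNFRSF1A and -0.40 for CFLAR. With L+G they were -0.55 for TNFRSF10A, -1.33 for TNFRSF1A, -0.27 for TNFRSF21 and 0.0475 for CFLAR. With luteolin they were -0.0066 for TNFRSF10B, -0.17 for FAS, -0.0895 for TNFSF10 and 0.0466 for TNFRSF21. The signals of FAS and TNFSF10 are low, and normexp correction gave 0.13 and 0.36 with gefitinib and 0.23 and 0.47 with L+G. It gave -0.0141 for TNFRSF21 with L+G. Under it, some calls between drug groups fell under 2-fold. Luteolin against gefitinib was 0.71 for TNFRSF10A and 0.08 for TNFSF10. L+G against gefitinib was 0.76 for TNFRSF10A, and L+G against luteolin was -0.80 for CFLAR. Quantile normalization gave -0.31 for TNFRSF21 with L+G and -0.88 with gefitinib. The median log2 change of all genes against DMSO moved from 0.22 and 0.16 with gefitinib and L+G to 0.05 and 0.01 under it, and to 0.37 and 0.29 under normexp. The median over probes gave 0.47 for TNFRSF10B with L+G, 0.12 for CFLAR with luteolin, and -0.14 for CFLAR with gefitinib, whose pairs of probes have opposite signs there. Under that median, CFLAR fell short of 2-fold for L+G against 0 h at -0.93 and for L+G against gefitinib at -0.87. The slide block gave -0.0177 for CFLAR with gefitinib. For luteolin against gefitinib it gave 0.89 for TNFRSF10A, under 2-fold, and 1.10 for TNFSF10 (limma adjusted p = 0.0836). With no minimum fold, 4 genes were called for gefitinib against DMSO (55.1% of all genes) and 4 against 0 h (54.3%). The methods' t-test called 2 genes for DMSO against 0 h at an unadjusted p under 0.05 (12.7% of all genes). By that rule it called 0 for luteolin (22%), FADD and TNFRSF1A for gefitinib (23.5%) and TNFRSF21 alone for L+G (12.8%). CFLAR with L+G had an unadjusted t-test p of 0.144. After Benjamini-Hochberg adjustment it called 0 for gefitinib and 0 for L+G against 0 h. Of all genes, 0.00508% passed in each, so these counts cannot tell the 8 genes from the rest. Except where a value is tied to the exchange of arrays or to the pairs of probes, the cause was not tested.

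Leaving out 1 array at a time gave counts of 2 to 4 for gefitinib against 0 h, 2 to 5 for luteolin against gefitinib and 0 to 3 for L+G against luteolin, and log2 changes with L+G against DMSO of -0.31 to 0.30 for TNFRSF10B, -0.69 to 0.34 for FAS, -0.74 to 0.56 for TNFSF10, -0.0694 to 0.35 for TNFRSF1A and -0.0013 to 0.0944 for TNFRSF21. The group left with 1 array was assumed to vary like the others. For TNFRSF10A, luteolin against gefitinib was 0.95 (log2) without the first luteolin array and 0.78 without the second gefitinib array. For CFLAR, L+G against luteolin was -0.76 without the second L+G array. Over all alternatives, gefitinib against 0 h ran from -1.02 to 0.22 for TNFRSF10A and from -1.15 to 0.09 for TNFRSF10B.

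Replicate numbers are shared by the groups, but deviations of same-numbered arrays correlated between -0.0935 and 0.289, so the numbers were not taken as pairs. With the replicate number as a block, the counts against DMSO stayed 0, 2 and 1 of 8 with luteolin, gefitinib and L+G. Without the block, 13.4%, 29.9% and 19.8% of all genes were called there. With the block, no call on the 8 genes changed in any of the 11 comparisons.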
